A study of Mus musculus with 6 samples.

Results

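The mesenchymal transition transcription factors described here are the products of 7 genes, Snai1, Snai2, Zeb1, Zeb2, Twist1, Twist2 and Prrx1, taken by symbol from a table of 30055 mouse genes. All 7 passed the filter on low counts, as did 15035 genes in total. The cells were cultured endothelial cells from the lungs of Ch25h-null mice of strain C57BL6, 3 weeks old and labelled female. Every group, the controls included, therefore lacked Ch25h, the gene of cholesterol 25-hydroxylase. Vehicle cells received no vesicles. TEV cells received extracellular vesicles of MC38 mouse colorectal tumour cells at 20 µg per ml for 12 h. Cells of the third group received reserpine, a blocker of vesicular monoamine transporters, at 10 µM for 8 h and then the same vesicles. Each group had 2 libraries, and no Ch25h-expressing cells and no cells given reserpine without vesicles were analysed here. The text of the series can also be read as reserpine given to all cells, and the sample labels, which give it to one group, were followed. The sources used here do not give the deleted part of Ch25h, or say whether the 2 libraries of a group came from separate cultures or mice. P-values therefore measure the spread between these libraries, which may be technical.

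Cells that lose epithelial or endothelial junctions and take on a motile, matrix-producing state do so under a small set of transcription factors. SNAIL and ZEB proteins are zinc-finger repressors that bind E-box sequences in the genes of cadherins and tight junction proteins. TWIST proteins are basic helix-loop-helix factors that pair with E proteins, and PRRX1 is a homeodomain factor of limb and connective tissue mesenchyme. In endothelium the same change is called endothelial to mesenchymal transition, and TGF-beta, Notch and hypoxia signals are known to induce its factors. The same genes are also expressed by resident fibroblasts and pericytes, so in a culture their RNA may come from more than one cell type.

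With TEV, 6 of the 7 genes had less RNA than with vehicle and none had more, while 24.6% of all genes tested were called lower, 25.1% higher and 49.7% in either direction. The log2 changes were lowest for Prrx1, Twist2 and Twist1, and the falls were 2.33-fold for Snai1, 2.13-fold for Zeb2 and 1.22-fold for Zeb1. With reserpine before the vesicles the SNAIL genes differed from TEV alone in opposite directions: Snai1 was higher and Snai2 was lower. The other 5 genes were not called in that comparison. Over the set, 1 of 7 genes was called higher and 1 lower, where 31.6% of all genes were called in either direction. That count is near the share of all genes, so it is no result about the 7 genes. Levels below are counts scaled to library size (CPM, with TMM factors), and changes are log2 values of an edgeR quasi-likelihood test with Benjamini-Hochberg adjustment over all 15035 genes, called at an adjusted p under 0.05.

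**Figure D1:**
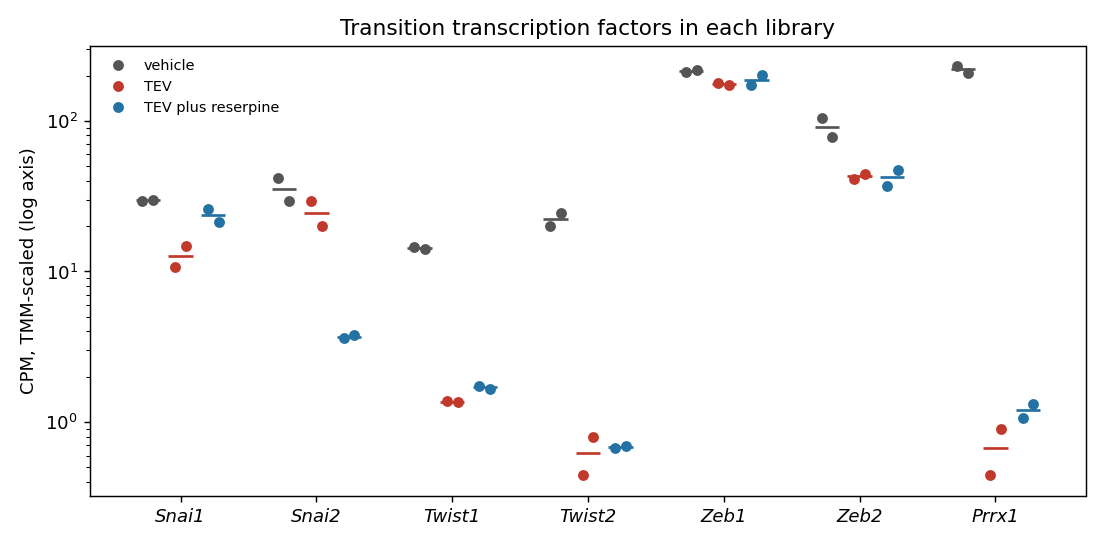
Points give TMM-scaled CPM of each gene in each of the 6 libraries on a log axis, coloured by group, and bars mark group means. Vehicle lies above all libraries with vesicles for Snai1, Zeb1, Zeb2, Prrx1, Twist1 and Twist2, with the widest gaps for Prrx1, Twist1 and Twist2. The share of all genes that separate in this way is not given here. Snai2 is low in both libraries with reserpine.

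Libraries held 22270657 to 81225627 estimated counts, so 3 counts, the limit that a count of 0 allows, came to 0.0369 to 0.135 CPM for counting error only. The first principal component of all genes held 66.2% of the variance and the second 24.1%. Defining endothelial markers summed to 4080 and 4050 CPM in vehicle, 8130 and 7910 CPM in TEV, and 8360 and 8360 CPM in TEV plus reserpine, and none of the 8 markers was at 0 in a library. Markers of other cell types were detected too. Fibroblast markers summed to 306 and 292 CPM in vehicle, 27.2 and 33.9 CPM in TEV, and 62.6 and 58.5 CPM in TEV plus reserpine. Pericyte and smooth muscle markers summed to 255 and 235 CPM, 11.4 and 16.8 CPM, and 45.7 and 48.9 CPM in the same order. These sums moved with the levels of Prrx1, Twist1 and Twist2 in the comparison of TEV with vehicle, and their part in that result was not tested. In bulk RNA, fewer cells of a type and less RNA per cell cannot be told apart.

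Snai1 encodes SNAIL, a repressor of E-cadherin and of other junction genes. Its level was 29.5 and 30 CPM in vehicle, 10.7 and 14.7 CPM in TEV, and 26 and 21.2 CPM in TEV plus reserpine. Both TEV libraries were below all the others, and the reserpine libraries lay between the TEV and vehicle libraries with no overlap. Snai1 was lower in TEV than in vehicle by a factor of 2.33 (log2 change -1.22, SE 0.18, edgeR adjusted p = 0.00163). It was higher in TEV plus reserpine than in TEV by a factor of 1.84 (0.88, SE 0.18, edgeR adjusted p = 0.0127). That second call rested on single libraries, with an adjusted p of 0.0512 without TEV replicate 1 and of 0.0687 without TEV plus reserpine replicate 1. Against vehicle, the reserpine group differed by -0.34 with a 95% interval from -0.76 to 0.08 (adjusted p = 0.169), which holds no change as well as a fall.

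Snai2 encodes SLUG, the paralog of SNAIL and a repressor with the same type of DNA contact. Vehicle libraries held 41.5 and 29.3 CPM, TEV libraries 29.3 and 19.9 CPM, and the libraries with reserpine 3.62 and 3.76 CPM. One vehicle and one TEV library thus had the same level, whereas both reserpine libraries were far below the others. The log2 change with TEV was -0.53 with a 95% interval from -1.07 to 0.01 (edgeR adjusted p = 0.0911). This value lay close to the threshold and passed it under 5 of 15 alternatives, among them the fits without vehicle replicate 2 (-0.76, adjusted p = 0.0463) and without TEV replicate 1 (-0.81, adjusted p = 0.0371). With reserpine, Snai2 fell by a factor of 6.63 against TEV (-2.73, SE 0.26, adjusted p = 0.00107) and of 9.58 against vehicle (-3.26, SE 0.26, adjusted p = 0.000211). Snai2 was the only one of the 7 genes called lower with reserpine than with TEV alone. In the same comparison 6 of 11 fibroblast markers were called higher and none lower, where 15.7% of all genes were called higher. The change of Pdgfra, the most abundant of these markers, did not pass the test (-0.15, edgeR adjusted p = 0.471). Against vehicle, 7 of the 11 fibroblast markers were called lower, as was Snai2. The part of fibroblasts in the level of Snai2 was not tested.

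The ratio of Snai2 to Snai1 within a library therefore separated the groups given reserpine and TEV alone. In vehicle it was 1.41 and 0.975, in TEV 2.72 and 1.35, and in TEV plus reserpine 0.139 and 0.178. Vehicle and TEV ratios overlapped, and both reserpine ratios were below all others. Snai3, the third gene of the family, did not pass the filter, at 1.01 to 10.9 estimated counts a library.

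**Figure D2:**
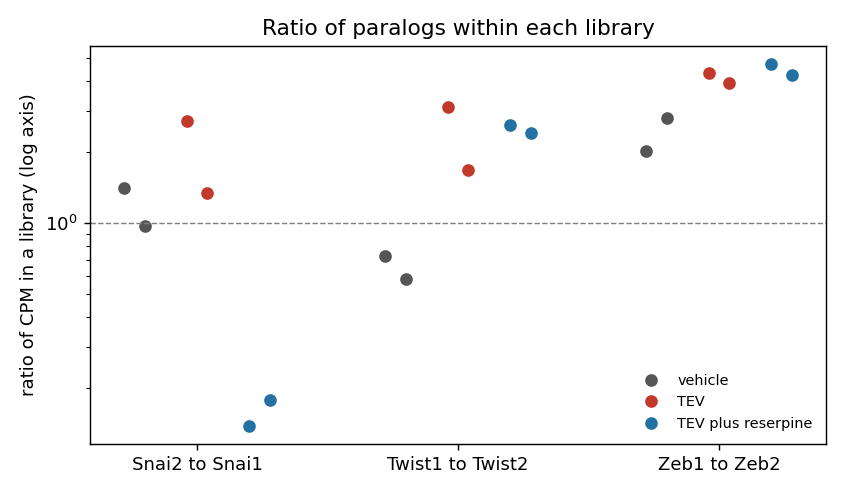
Points give the ratio of CPM of 2 paralogs within each of the 6 libraries on a log axis, with a dashed line at equal CPM. Snai2 to Snai1 is lowest in both TEV plus reserpine libraries, while Twist1 to Twist2 and Zeb1 to Zeb2 are lowest in both vehicle libraries.

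The ZEB genes, which encode large repressors with zinc fingers at both ends, had the smallest changes of the 6 called. Zeb1 held 211 and 219 CPM in vehicle, 179 and 173 CPM in TEV, and 174 and 201 CPM in TEV plus reserpine. Its TEV libraries were both below its vehicle libraries, and the reserpine libraries overlapped with those of TEV. The fall with TEV was a factor of 1.22 (-0.29, SE 0.09, edgeR adjusted p = 0.0352). Leaving out any one vehicle or TEV library ended this call, with adjusted p-values of 0.103 and 0.152 without vehicle replicates 1 and 2, and of 0.0949 and 0.115 without TEV replicates 1 and 2. Between TEV plus reserpine and vehicle the log2 change was -0.2 with a 95% interval from -0.41 to 0.02 (adjusted p = 0.126).

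Zeb2 acts beside Zeb1 in mesenchymal and neural crest cells. Its values were 104 and 78.6 CPM in vehicle, 41.2 and 44.3 CPM in TEV, and 36.8 and 47.4 CPM in TEV plus reserpine. All 4 libraries with vesicles were below both vehicle libraries, and those with and without reserpine overlapped. The change with TEV was -1.09 (SE 0.17, edgeR adjusted p = 0.00213), a factor of 2.13, and with TEV plus reserpine it was -1.11 against vehicle (SE 0.17, adjusted p = 0.00303), a factor of 2.16. Both comparisons share the vehicle libraries. The ratio of Zeb1 to Zeb2 was 2.03 and 2.78 in vehicle, 4.35 and 3.92 in TEV and 4.73 and 4.23 in TEV plus reserpine, with no overlap between vehicle and the other groups. For ratios of single libraries no test was made, since an exact two-sided permutation test of 2 against 2 cannot go below 0.333.

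Twist1 and Twist2 encode closely related helix-loop-helix proteins, the first a factor of neural crest and mesoderm and the second known from dermal mesenchyme. Twist1 was at 14.6 and 14.2 CPM in vehicle, 1.39 and 1.35 CPM in TEV, and 1.74 and 1.67 CPM in TEV plus reserpine. Twist2 was at 20 and 24.6 CPM in vehicle, 0.444 and 0.802 CPM in TEV, and 0.67 and 0.689 CPM in TEV plus reserpine. Vehicle libraries of both genes were above every library with vesicles, and the group sums of 156 and 79 counts in TEV were above the limit that a count of 0 allows. Twist2 was lower in TEV than in vehicle by a factor of 34 (-5.09, SE 0.29, edgeR adjusted p = 3.85e-05), against a factor of 10.5 for Twist1. Twist2 was more abundant than Twist1 in vehicle on the CPM scale, and less abundant in all 4 libraries with vesicles. Twist1 to Twist2 ratios were 0.727 and 0.579 in vehicle, 3.12 and 1.68 in TEV, and 2.6 and 2.42 in TEV plus reserpine. Against TEV, the interval of the reserpine group ran from -0.12 to 0.75 for Twist1 (0.31, SE 0.18, adjusted p = 0.227) and from -0.72 to 0.84 for Twist2 (0.06, SE 0.33, adjusted p = 0.907). Against vehicle, TEV plus reserpine still held 8.45-fold less Twist1 (-3.08, SE 0.18, adjusted p = 7.43e-05) and 32.6-fold less Twist2 (-5.03, SE 0.3, adjusted p = 8.03e-05).

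Prrx1 had the lowest log2 change of the 7 genes in both comparisons with vehicle. It was at 230 and 209 CPM in vehicle, 0.444 and 0.904 CPM in TEV, and 1.07 and 1.32 CPM in TEV plus reserpine. Vehicle libraries thus lay far above all others, with 15884 counts in both vehicle libraries together, 87 in TEV and 70 in TEV plus reserpine. Its log2 change with TEV was -8.21 (95% interval -8.77 to -7.64, edgeR adjusted p = 3.61e-06), a factor of 296, and 0.339% of all genes tested had a lower log2 change. With reserpine it was 180-fold below vehicle (-7.49, SE 0.23, adjusted p = 7.04e-06). The difference between reserpine and TEV alone was 0.72, with an interval from -0.03 to 1.46 (adjusted p = 0.123); both reserpine libraries were above both TEV libraries. That difference passed the threshold without TEV replicate 2 (1.46, adjusted p = 0.0175) and in DESeq2 (0.74, adjusted p = 0.0288). Prrx2, the paralog of Prrx1, was chosen for its relation and fell too, from 14.1 and 11.2 CPM in vehicle to between 0.167 and 0.216 CPM in TEV (-5.99, SE 0.33, adjusted p = 3.43e-05). In TEV plus reserpine Prrx2 was at 0.223 to 0.402 CPM, which is -5.27 against vehicle (SE 0.33, adjusted p = 9.27e-05).

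Promoters are shown for the 3 genes with the lowest log2 changes in TEV against vehicle, and for Snai1, which was higher with reserpine than with TEV alone. Each line gives the 250 bases before the RefSeq start on GRCm38.p6, 5′ to 3′ on the strand of the gene. Capitals mark a CACCTG E-box, a CCAAT box or a TATA box on either strand. Prrx1 lies on the minus strand at chr1:163313651-163313900, Twist2 on the plus strand at chr1:91801211-91801460, Twist1 on the plus strand at chr12:33957421-33957670, and Snai1 on the plus strand at chr2:167537945-167538194.
Prrx1: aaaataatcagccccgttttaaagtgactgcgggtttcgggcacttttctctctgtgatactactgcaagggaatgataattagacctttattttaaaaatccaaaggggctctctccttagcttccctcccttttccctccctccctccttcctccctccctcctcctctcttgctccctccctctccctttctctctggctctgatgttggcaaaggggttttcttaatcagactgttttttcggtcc
Twist2: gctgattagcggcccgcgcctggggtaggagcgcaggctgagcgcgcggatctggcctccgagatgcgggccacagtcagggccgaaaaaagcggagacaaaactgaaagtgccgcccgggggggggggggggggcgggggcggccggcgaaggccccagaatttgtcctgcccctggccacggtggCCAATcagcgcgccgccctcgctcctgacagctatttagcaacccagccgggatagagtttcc
Twist1: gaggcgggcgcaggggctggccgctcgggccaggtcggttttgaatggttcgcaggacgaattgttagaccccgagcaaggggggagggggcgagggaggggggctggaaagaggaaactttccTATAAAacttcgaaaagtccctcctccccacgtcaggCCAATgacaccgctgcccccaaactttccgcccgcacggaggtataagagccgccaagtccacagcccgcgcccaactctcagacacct
Snai1: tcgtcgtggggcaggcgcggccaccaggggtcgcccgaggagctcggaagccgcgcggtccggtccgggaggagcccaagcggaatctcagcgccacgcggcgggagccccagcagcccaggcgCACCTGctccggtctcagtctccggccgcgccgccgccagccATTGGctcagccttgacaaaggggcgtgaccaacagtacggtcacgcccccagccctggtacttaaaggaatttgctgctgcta

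The promoters were searched on both strands for the E-box CANNTG, for its form CACCTG, for CCAAT and for TATAAA. The CACCTG form overlaps with CANNTG by its letters. Among 32851 promoters of the same length, 66.2% held CANNTG, 17.2% CACCTG, 33.8% CCAAT and 12.4% TATAAA. Snai1 held a CACCTG that begins 126 bases before the start and a CCAAT box on the other strand, written ATTGG, 84 bases before it. Twist1 held CCAAT at 89 and TATAAA at 126 bases before the start, Twist2 held CCAAT at 63, and the Prrx1 window held none of the letters searched. GC content was 47.6% for Prrx1, 62.4% for Twist1, 68.8% for Twist2 and 70% for Snai1, against a median of 52.4% over all promoters. CpG pairs numbered 4, 18, 23 and 27 in the same order, against a median of 6. Prrx1, Twist1 and Twist2 thus had no motif of the search in common, and the letters of Prrx1 differed from the others in base composition. Twist1, Twist2 and Snai1, which all fell with TEV, each held CCAAT, as did 33.8% of all promoters. Zeb2 promoters were searched too and are not shown. The Zeb2 window at chr2:45117443-45117692 held CCAAT, and its other windows held none of the letters searched. A match is a description of letters and not of a bound site.

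**Figure D3:**
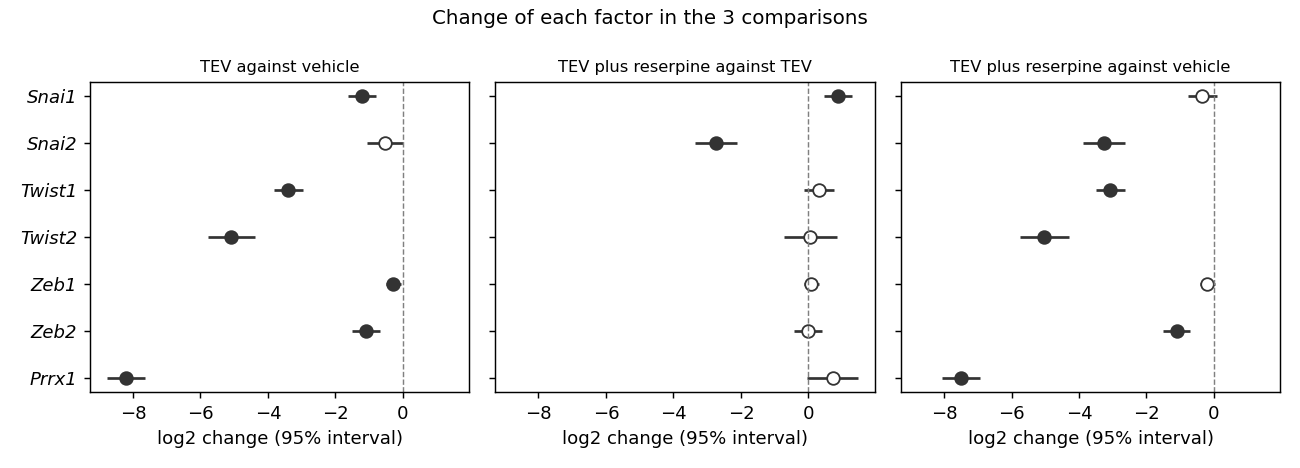
Points give the log2 change of each of the 7 genes in the 3 comparisons, with bars for 95% intervals, and filled points were called. Prrx1, Twist2 and Twist1 are lowest in TEV against vehicle, Prrx1, Twist2 and Snai2 in TEV plus reserpine against vehicle, and in the middle panel Snai1 and Snai2 are the genes called.

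Counts over the set were set against all genes. In TEV against vehicle 6 of 7 genes were called lower and 0 higher, against the background of 24.6% lower and 25.1% higher. In TEV plus reserpine against TEV 1 of 7 was called lower and 1 higher, where 16% of all genes were called lower, 15.7% higher and 31.6% in either direction. These shares are near that background, so the count is no result about the 7 genes. In TEV plus reserpine against vehicle 5 of 7 were called lower and 0 higher, where 19.9% of all genes were called lower, 19.1% higher and 39.1% in either direction. The median log2 change of the 7 genes was -1.22, 0.09 and -3.08 in the 3 comparisons, and that of all genes was 0.01, 0 and -0.02. Scaling by library size alone moved the all-gene median with TEV to -0.11 and the share of higher calls among all calls from 50.5% to 39.8%. No called gene of the set changed direction under it.

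Levels of different genes were compared per length, as CPM per kilobase of the longest coding GENCODE M21 transcript. In vehicle Zeb1 was highest at 37.1 CPM per kb, followed by Prrx1 at 33.6, Snai1 at 18.4 and Snai2 at 17.5. Zeb2 at 9.99, Twist1 at 8.85 and Twist2 at 8.84 CPM per kb were lowest. The order depends on the transcript used: per kb of the shortest RefSeq-linked transcript Prrx1 was at 44.3 and Zeb2 at 22.7 CPM per kb in vehicle. In TEV the order was Zeb1 at 30.4, Snai2 at 12.2, Snai1 at 7.86, Zeb2 at 4.68, Twist1 at 0.841, Twist2 at 0.247 and Prrx1 at 0.103 CPM per kb. With reserpine Snai1 was second at 14.5 CPM per kb, and Zeb2 at 4.61 and Snai2 at 1.83 followed. Zeb1 was thus the most abundant of the 7 per length in both vesicle groups. Summed over the set, the level was 139 and 130 CPM per kb in vehicle, 57.6 and 54.9 in TEV, and 53.3 and 56.2 in TEV plus reserpine. Antisense genes overlap exons of Twist2 (Gm29100), Zeb1 (Gm10125) and Zeb2 (Zeb2os and Gm27761) and have no row in the table, and without a stated strand their reads cannot be told apart from those of the 3 genes.

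Likeness of profile was measured as the root mean square distance between log2(CPM + 0.5) values over the 6 libraries, each gene centred on its mean, over 10430 genes averaging 5 CPM or more. Within the set, Zeb1 and Zeb2 were closest at 0.426, followed by Snai1 and Zeb1 at 0.454 and by Snai1 and Zeb2 at 0.466. Twist1 and Twist2 were 0.7 apart, Snai1 and Snai2 1.52, and Zeb1 and Prrx1 were farthest apart at 3.34. By this distance the ZEB paralogs were closer than the SNAIL paralogs, but Snai1 was nearly as close to either ZEB gene. The distance grows with the size of the changes. Zeb1 and Zeb2 still differed, with log2 changes of -0.29 and -1.09 with TEV. Nearest to Prrx1 were Mgp at 0.23, which encodes matrix Gla protein, Loxl1 at 0.238, a cross-linking enzyme of elastic fibres, and Slc14a1 at 0.428. Nearest to Twist2 were Wisp2 at 0.168, the T-box gene Tbx4 at 0.189 and the procollagen protease gene Adamts2 at 0.199. The 0.5 added to CPM narrows differences between genes at low levels. With TEV, Mgp had a log2 change of -10.21 and Prrx1 of -8.21, and Wisp2 of -6.16 and Twist2 of -5.09. Twist1 had as neighbours Bgn at 0.0994, which encodes the matrix proteoglycan biglycan, Igf2bp3 at 0.111 and Trnp1 at 0.113. The profile of Snai2, low with reserpine, was closest to those of Igfbp5 at 0.323, Adcy7 at 0.329 and Havcr2 at 0.41. Snai1 lay at 0.0349 from Txnrd3, 0.0518 from Sema4c and 0.0523 from Rab11fip5. Zeb1, nearly flat, lay at 0.0286 from Rap2c, 0.0341 from 8030462N17Rik and 0.0373 from Rnf2, and Zeb2 at 0.081 from Pcdhgb4, 0.0865 from Nbea and 0.094 from Cuedc1. The 6 libraries fall into 3 groups, so these distances describe group levels more than independent points.

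Other transcription factors linked to the transition moved in both directions. Levels of listed genes below are means of the 2 libraries of a group. Counts of called genes in each list stand beside the shares of all genes. With TEV, 25.1% of all genes were higher and 24.6% lower. These shares were 15.7% and 16% with reserpine against TEV, and 19.1% and 19.9% with reserpine against vehicle. Of 15 tested, 5 were higher and 7 lower in TEV than in vehicle (median log2 change -0.26). Foxq1, a forkhead factor, rose from 1.5 to 40.7 CPM with TEV (4.75, SE 0.33, edgeR adjusted p = 7.38e-05) and stood at 0.547 CPM with reserpine (-6.18 against TEV, SE 0.37, adjusted p = 0.00034). Meox1, a homeobox gene of somites, rose from 5.17 to 48.7 CPM with TEV (3.25, SE 0.19, adjusted p = 3.85e-05), and Tbx3, a T-box repressor, fell from 53.9 to 1.51 CPM (-5.09, SE 0.33, adjusted p = 5.49e-05). With reserpine against TEV, 6 of the 15 were lower and 0 higher, and 3 were lower without TEV replicate 1 or without either reserpine library. Against vehicle 1 was higher and 8 were lower.

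Among 20 partners and corepressors, 11 were higher and 4 lower with TEV (median 0.34), and the lower calls were 1 without vehicle replicate 1 or TEV replicate 1 and 2 without vehicle replicate 2. Scaling by library size alone left 7 higher. Of all genes, 25.1% were higher and 24.6% lower with TEV. Hdac1, a histone deacetylase that SNAIL recruits, rose from 120 to 251 CPM (1.06, SE 0.07, edgeR adjusted p = 7.62e-05). Tcf4, an E protein that can pair with TWIST, held 282, 316 and 312 CPM in the 3 groups, and none of its changes passed the test. With reserpine against TEV 2 were higher and 5 lower, and against vehicle 8 were higher and 1 lower. The shares of all genes were 15.7% higher and 16% lower against TEV, and 19.1% and 19.9% against vehicle. Against TEV, the higher calls were 0 without TEV replicate 1 and 1 without either vehicle or either reserpine library, and the lower calls were 1 without TEV replicate 1 or reserpine replicate 2 and 3 without reserpine replicate 1. Against vehicle, the higher calls were 5 without either vehicle library or reserpine replicate 1, and the lower calls were 0 without vehicle replicate 1 and 2 without reserpine replicate 1.

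SNAIL and SLUG are short-lived proteins, and kinases, ubiquitin ligases and deubiquitinases set their stability. Of 15 such genes, 6 were higher and 2 lower with TEV (median 0.09), 1 was higher and 8 were lower with reserpine against TEV (median -0.47), and 3 were higher and 5 lower with reserpine against vehicle. Higher and lower shares of all genes were 25.1% and 24.6%, 15.7% and 16%, and 19.1% and 19.9% in the same order. With TEV, the number called in either direction was near the 49.7% of all genes, so it is no result about these genes. The 8 lower calls were 5 without TEV replicate 1 or reserpine replicate 1, and the 5 lower calls were 3 without vehicle replicate 2 or reserpine replicate 2. The 2 lower calls with TEV were 1 without either vehicle library or TEV replicate 1, and 5 when scaled by library size alone. Usp27x, a deubiquitinase of SNAIL, rose from 7.39 to 52.3 CPM with TEV (2.82, SE 0.17, edgeR adjusted p = 4.72e-05) and was at 13.9 CPM with reserpine (-1.91 against TEV, SE 0.17, adjusted p = 0.000845). Prkd1, a kinase that phosphorylates SNAIL, was at 15 CPM in vehicle, 26.3 CPM in TEV and 6.44 CPM with reserpine (-2.03 against TEV, SE 0.22, adjusted p = 0.00165). Protein was not measured.

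Upstream signalling genes moved in both directions. Of 22 tested, 5 were higher and 10 lower with TEV (median -0.45), 10 were higher and 4 lower with reserpine against TEV (median 0.32, mean -0.07), and 7 were higher and 8 lower with reserpine against vehicle. Among all genes the higher and lower shares were 25.1% and 24.6%, 15.7% and 16%, and 19.1% and 19.9% in the same order. The number higher with TEV was thus near the share of all genes. The 10 higher calls were 4 without TEV replicate 1 and 5 without either reserpine library. The 4 lower calls were 2 without TEV replicate 1 or either vehicle library and 1 without either reserpine library. Hif1a, the hypoxia factor that is known to induce Twist1, rose from 379 to 1150 CPM with TEV (1.6, SE 0.15, edgeR adjusted p = 0.000235) and was at 257 CPM with reserpine. Jag1, a Notch ligand, fell from 193 to 79.1 CPM with TEV (-1.28, SE 0.17, adjusted p = 0.00102) and was at 448 CPM with reserpine (2.5 against TEV, SE 0.17, adjusted p = 0.000486). Bmp4 rose from 34.2 to 155 CPM (2.19, SE 0.19, adjusted p = 0.000184) while Bmp2 fell from 33.5 to 2.2 CPM (-3.89, SE 0.27, adjusted p = 7.37e-05).

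**Figure D4:**
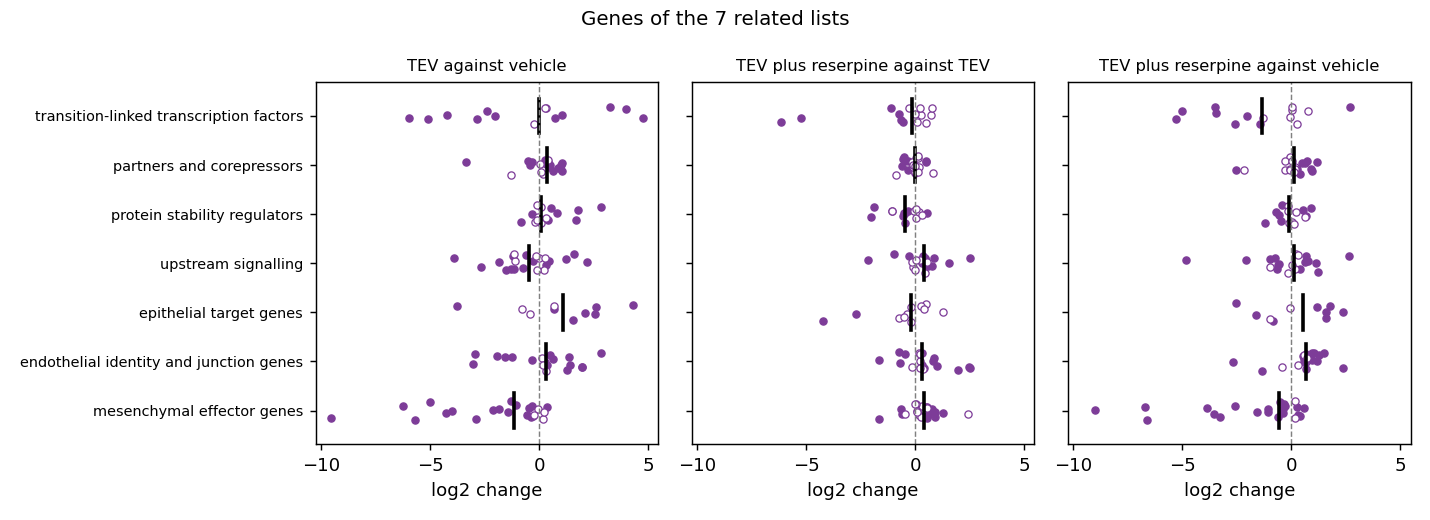
Each point is the log2 change of one gene of the lists related to the 7 factors, by comparison, with filled points for called genes and a black bar at the median of the genes plotted. Genes with 3 counts or fewer in a group compared are left out, so a bar can differ from the median of all genes tested; mesenchymal effectors lie mostly below 0 with TEV, and epithelial targets mostly above.

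Genes that SNAIL and ZEB factors are known to repress were measured as well. Of 11 epithelial target genes that passed the filter, 7 were higher and 1 lower with TEV (median 1.53). Of all genes, 25.1% were higher and 24.6% lower. The shares of all genes were 15.7% higher and 16% lower with reserpine against TEV, and 19.1% and 19.9% with reserpine against vehicle. Several of the 11 were at low levels. Cdh1, the gene of E-cadherin, averaged 0.395 CPM in vehicle and 0.235 CPM in TEV, and Cldn1 averaged 1.5 and 0.106 CPM. Cldn3 averaged 0.441 and 2.63 CPM, and Grhl2 0.0232 and 0.524 CPM. Dsp, the desmosome protein desmoplakin, rose from 1.44 to 28.4 CPM (4.29, SE 0.4, edgeR adjusted p = 0.000247) and was at 4.28 CPM with reserpine. Pkp2, the desmosome protein plakophilin 2, rose from 16 to 46.2 CPM (1.53, SE 0.11, adjusted p = 0.000107). With reserpine against TEV 0 were higher and 2 lower, and against vehicle 6 were higher and 3 lower, the latter 1 without vehicle replicate 2 or reserpine replicate 1.

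Endothelial identity and junction genes were split. Of 19, 10 were higher and 6 lower with TEV (median 0.29), 9 were higher and 4 lower with reserpine against TEV, and 13 were higher and 2 lower with reserpine against vehicle (median 0.69). All genes had shares of 25.1% higher and 24.6% lower, 15.7% and 16%, and 19.1% and 19.9% in the same order. Cdh5, which encodes the junction protein VE-cadherin, stood at 1750 CPM in vehicle, 2260 CPM in TEV (0.37, SE 0.06, edgeR adjusted p = 0.00242) and 2820 CPM in TEV plus reserpine. Kdr, the receptor VEGFR2, fell from 325 to 85.3 CPM with TEV (-1.92, SE 0.21, adjusted p = 0.000494) and was at 479 CPM with reserpine. Vwf, the von Willebrand factor gene, fell from 47.3 to 5.83 CPM (-3.02, SE 0.16, adjusted p = 2.82e-05), and Emcn, which encodes the sialomucin endomucin, rose from 360 to 2580 CPM (2.84, SE 0.07, adjusted p = 2.97e-06).

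Mesenchymal effector genes fell with TEV in 17 of 22 cases and rose in 1 (median -1.18), where 24.6% of all genes were lower and 25.1% higher. Col1a2, a chain of collagen I, fell from 1360 to 1.73 CPM (-9.53, SE 0.23, edgeR adjusted p = 2.18e-06) and Mmp14, a membrane collagenase, from 273 to 75 CPM (-1.86, SE 0.14, adjusted p = 0.000101). Fn1 (fibronectin) and Vim (vimentin), the highest of the list by mean over all libraries, held 14400 and 16400 CPM and 4080 and 3980 CPM in vehicle and TEV, and neither change passed the test. With reserpine against TEV 9 were higher and 3 lower (median 0.4), and against vehicle 4 were higher and 16 lower (median -0.55). For all genes the shares were 15.7% higher and 16% lower against TEV, and 19.1% and 19.9% against vehicle. The 16 lower calls were 10 without any one of the vehicle or reserpine libraries, and the 4 higher calls were 1 without reserpine replicate 1 and 2 without reserpine replicate 2 or vehicle replicate 2. The 3 lower calls were 1 without either reserpine library, and the 1 higher call with TEV was lost without vehicle replicate 1.

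**Figure D5:**
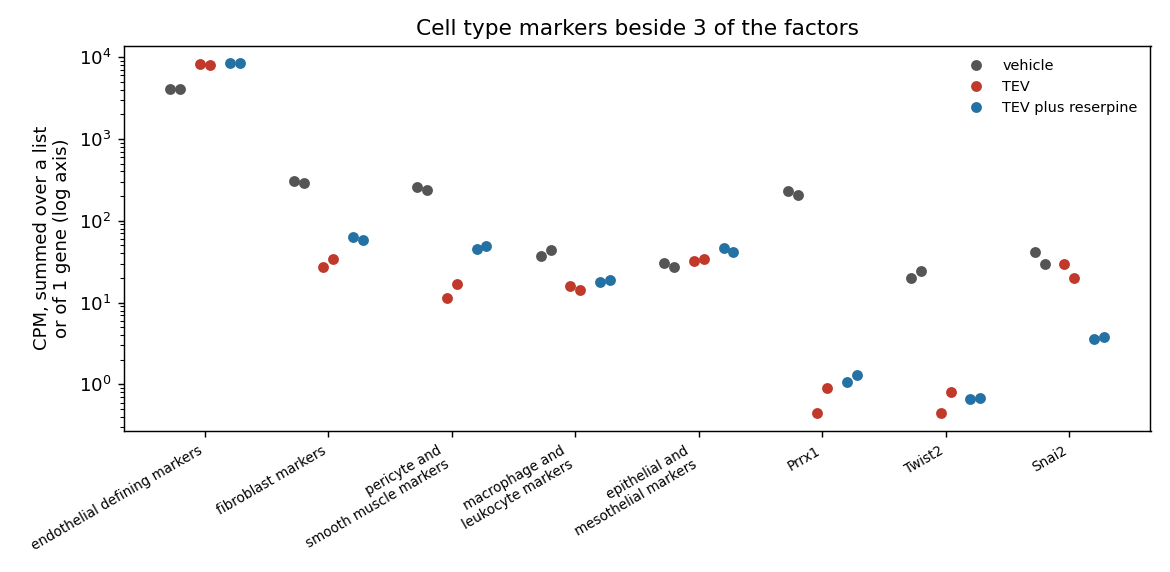
Points give the summed CPM of the markers of 5 cell types, and the CPM of Prrx1, Twist2 and Snai2, in each of the 6 libraries on a log axis, coloured by group. The sum of endothelial markers is lowest in both vehicle libraries, and the sums of fibroblast and pericyte markers are highest there. Single markers need not follow a sum. Of 8 endothelial markers, 6 were called higher and 2 lower with TEV.

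With TEV 9 of 11 markers of fibroblasts and 9 of 10 of pericytes and smooth muscle fell and none rose, with medians of -2.69 and -3.88. Of all genes, 24.6% were lower with TEV, 15.7% were higher with reserpine against TEV and 19.9% were lower with reserpine against vehicle. Pdgfra, a receptor of fibroblasts, fell from 151 to 4.32 CPM (-5.11, SE 0.14, edgeR adjusted p = 3.46e-06) and Pdgfrb, the pericyte receptor, from 113 to 2.53 CPM (-5.48, SE 0.15, adjusted p = 3.53e-06). Inmt was at 0 in both TEV libraries, and Lum, Dpt and Mfap4 were at 0 in both TEV plus reserpine libraries. Cspg4, a defining pericyte gene, was at 0 in all 4 libraries with vesicles. With reserpine against TEV 6 fibroblast and 5 pericyte markers were higher and none lower, with Abcc9 at 1.52 CPM in TEV and 11.1 CPM with reserpine (2.82, SE 0.24, adjusted p = 0.000842). Single markers differed in the reserpine libraries, where Prrx1, Twist1 and Twist2 were low. Pdgfra and Pdgfrb were at 3.94 and 2.36 CPM there, far below vehicle. Dcn, a matrix proteoglycan gene, was at 25.9 CPM against 31.1 CPM in vehicle, and Notch3, a receptor of mural cells, at 21.1 against 23.5 CPM, and neither change from vehicle passed the test. Against vehicle 7 fibroblast markers were lower, or 4 without vehicle replicate 1 or reserpine replicate 2, and 7 pericyte markers were lower. The part of these cells in the levels of the transcription factors was not tested.

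Macrophage and leukocyte markers summed to 37.5 and 44.3 CPM in vehicle, 16.1 and 14.3 CPM in TEV, and 17.6 and 18.7 CPM in TEV plus reserpine. Lyz2 made up much of the sums in vehicle, with means of 26.8, 4.01 and 4.79 CPM in the 3 groups (-2.76 with TEV). Cd68 rose instead, with means of 3.22, 5.8 and 8.97 CPM (0.85 with TEV). Of 9 markers of the list tested, 1 was higher and 4 were lower with TEV, 1 and 0 with reserpine against TEV, and 1 and 6 with reserpine against vehicle. For this and the 2 lists that follow, shares of all genes were 25.1% higher and 24.6% lower, 15.7% and 16%, and 19.1% and 19.9%. The single higher call with reserpine against TEV was lost without any one library, and the 6 lower calls were 3 without either reserpine library and 2 without either vehicle library. The higher call with TEV was lost without TEV replicate 2 or vehicle replicate 2. Epithelial and mesothelial markers summed to 30.2 and 27.1 CPM, 32.5 and 33.9 CPM, and 46 and 41.4 CPM in the 3 groups. Krt18 made up much of these sums with vesicles, with means of 5.62, 31.4 and 42.1 CPM (2.48 with TEV). Upk3b had means of 13.7, 0.978 and 0.839 CPM (-3.79 with TEV). Of 8 markers of this list tested, 1 was higher and 6 were lower with TEV, 1 and 0 with reserpine against TEV, and 1 and 5 with reserpine against vehicle. The higher call against TEV was lost without any one of the TEV or reserpine libraries. Of 8 defining endothelial markers, 6 were higher and 2 lower with TEV, 5 and 2 with reserpine against TEV, and 7 and 0 with reserpine against vehicle. With TEV, 1 was lower without either vehicle library or TEV replicate 1. Against TEV, 3 were higher without TEV replicate 1 or reserpine replicate 1, and 1 was lower without either reserpine library.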

How the data were processed

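RNA sequencing covered 6 libraries, 2 in each of 3 groups taken from the sample titles. Per the labels' protocols, polyA RNA was made into TruSeq libraries and read single-end on a NextSeq instrument. Per the submitters' processing notes, kallisto 0.45.0, R 4.0.0, edgeR and limma were used, and the build named is GRCh38, although the symbols are those of mouse genes. The deposited values are estimated counts per gene symbol, with no normalization. No strand is given in the sources used here. Titles give the replicate numbers used here, and the descriptions number the libraries with vesicles 2 and 3.

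Here the estimated counts were rounded, filtered with filterByExpr and scaled with TMM factors of 0.941 to 1.04. Each comparison was a contrast in 1 edgeR quasi-likelihood fit over the 6 libraries, which leaves 3 residual degrees of freedom, and the 3 comparisons share libraries. CPM and group values were computed from the same counts; the value of 3 counts used library totals. The fit was tested on simulated counts drawn with the dispersions of these data and with few genes changed. Such counts cannot check the scaling where as many genes change as were called here. Versions were edgeR 4.0.16, DESeq2 1.42.0 and limma 3.58.1 in R 4.3.3.

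The 7 genes and the 12 lists (7 of pathways and 5 of cell types) were chosen with earlier results of these data known. Named from each list were the called genes with the largest and smallest log2 change at a mean of at least 5 CPM and the most abundant gene; not every gene the rule allows is printed. Prrx2, Snai3, marker genes at 0, and some levels of listed genes in further comparisons (such as Dcn and Notch3 with reserpine against vehicle) were given outside that rule, after their values were seen. 3 listed genes appear in the table under older symbols. Promoters came from RefSeq on GRCm38.p6, and 5 of the 7 genes matched. Alternatives covered normalization, filters, DESeq2, limma-voom, thinned libraries, the replicate number as a block, a fit of only the 2 groups compared, and leaving out each library.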

Additional observations from a re-analysis of the deposited data

How the results depend on the processing

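Under all 15 alternatives, Prrx1 (log2 -8.93 to -7.9), Twist2 (-5.64 to -4.77), Twist1 (-3.52 to -3.37), Snai1 (-1.47 to -1) and Zeb2 (-1.28 to -0.88) were called lower in TEV than in vehicle, and Snai2 was called lower with reserpine against TEV (-2.97 to -2.44) and against vehicle (-3.49 to -2.98). The number of the 7 genes called higher with reserpine against TEV was 1, was 2 in DESeq2, and ranged from 0 to 2 when 1 library was left out. When 1 library was left out, calls over all genes with reserpine against TEV ranged from 1049 to 2177 higher (2354 with all libraries) and from 1075 to 2138 lower (2403), and with reserpine against vehicle from 1800 to 2977 higher (2879) and from 1772 to 2980 lower (2994). A fit with the other libraries' spread then stands in for the lone library of a group.

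Libraries with the same number in the titles did not deviate together (correlations of 0, -0.06 and -0.09 over 10431 genes), so the numbers are not taken to pair them. The block below also used the titles' numbers. The descriptions number the libraries with vesicles differently, and a block by those numbers was not fitted. With the replicate number as a block, 3438 genes were called higher and 3426 lower with TEV, 1910 and 1930 with reserpine against TEV, and 2503 and 2591 with reserpine against vehicle. The block ended the call of Zeb1 with TEV (adjusted p = 0.0562) and made that of Snai2 (adjusted p = 0.0422); Snai2 was also called without the low-count filter (adjusted p = 0.0413) and with library size alone (-0.66, adjusted p = 0.0426).

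Signs turned for a few uncalled changes, and the cause was not tested. With reserpine against TEV, scaling by library size alone gave Zeb2 0.06, Tcf4 0.06 and Csnk1a1 0.03, and thinned libraries gave Twist2 -0.07, Pdgfra 0.01 and Pdgfrb 0.09. With 1 library left out, the ranges were -0.24 to 0.63 for Twist2, -0.02 to 0.2 for Zeb1, -0.22 to 0.16 for Zeb2, 0 to 0.6 for Lyz2, -0.27 to 0.02 for Pdgfra, -0.27 to 0.05 for Pdgfrb and -0.11 to 0.09 for Tcf4. Vim with TEV ranged from -0.15 to 0.09. With 2 libraries a group no library could be tested as an outlier. With TEV, Twist2 rested on 79 counts and Prrx1 on 87.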
